A study of Mus musculus with 2 samples.

Results

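Vascular endothelial growth factors (VEGFs) and angiopoietins are secreted ligands that act on receptor tyrosine kinases of endothelial cells, the cells that line vessels. The 10 genes described here are the VEGF receptor genes Kdr and Flt1, the co-receptor genes Nrp1 and Nrp2, the receptor genes Tek and Tie1 of the angiopoietin system, and the ligand genes Vegfa, Vegfc, Pgf and Angpt2. They were chosen by name, out of 54438 genes in the deposited tables, and together have 49 listed transcripts. The tables hold 2 libraries, W1 and W2, of RNA from cells labelled as mammary gland basal cells. Both are labelled as wild type, from C57BL/6 mice aged 8 weeks, and the cells were sorted by flow cytometry after antibody staining and lysed in a Smart-seq reagent, and their RNA was made into stranded libraries with a KAPA kit. The antibodies are not named in the sources used here. The series concerns basal cells that carry or lack Pd-l1, an inhibitory ligand of T cells, but the labels give neither library a Pd-l1 class, a gate, a number of mice or a number of cells. W1 and W2 are therefore described side by side as single libraries without replicates, with no test and no p-value, and nothing below is a difference between Pd-l1 classes.

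In the vessel wall, binding of Vegfa to the receptor encoded by Kdr drives endothelial growth, migration and permeability, while the product of Flt1 binds Vegfa more tightly and signals weakly. A secreted form of the Flt1 protein, which lacks the kinase, acts as a decoy for Vegfa and Pgf. Neuropilins, the products of Nrp1 and Nrp2, hold VEGFs and class 3 semaphorins at the cell surface, and Vegfc acts mainly through the receptor encoded by Flt4 on lymphatic vessels. The receptor encoded by Tek is activated by the product of Angpt1, and the product of Angpt2 mostly opposes that; Tie1 encodes a partner of Tek with no firmly bound ligand. In the mammary gland these receptors are known from the vessels that surround the epithelial ducts, and the ligands can come from epithelial, stromal or vascular cells.

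W1 held 3055830 counted reads and W2 had 3800035. Markers of the labelled cell type were read mostly in W2. Of 12 basal and myoepithelial markers, 10 could be compared, 9 were 2-fold or more higher in W2 and 0 in W1, and the summed level of the list was 195 TPM in W1 and 37000 TPM in W2. TPM is a read count divided by transcript length and scaled to the same total in each library. The basal keratin gene Krt5 had 0 reads in W1 and 3923 in W2, and Krt14 had 1 read in W1 and 6230 in W2. Itga6 (140 TPM in W1 and 169.7 TPM in W2) and Mylk (45.4 TPM in W1 and 138.4 TPM in W2) make up most of the basal sum in W1. Of 13 endothelial markers, with Tie1 among them, 11 could be compared and all 11 were higher in W1, with a summed level of 4630 TPM in W1 and 8.68 TPM in W2. Cdh5 and Cldn5, 2 defining endothelial genes, had 6815 and 6822 reads in W1 and 0 reads each in W2. Lymphatic markers summed to 13100 TPM in W1 and 8080 TPM in W2, with 3 of 6 compared genes higher in W1 and 1 in W2. Ccl21a (10180 TPM in W1 and 7543 TPM in W2) and Pdpn (437.9 TPM in W1 and 531.5 TPM in W2), both within 2-fold, make up nearly all of the sum in W2. Lyve1, Prox1 and Flt4 had 21085, 1801 and 768 reads in W1 and 0 reads each in W2. Reln went the other way, with 2 reads in W1 and 158 in W2. Mmrn1, not compared, had 3 reads in W1 and 0 in W2. Luminal markers summed to 13.3 TPM in W1 and 4670 TPM in W2 (6 of 7 higher in W2), and fibroblast markers to 3.19 TPM in W1 and 230 TPM in W2 (7 of 7 higher in W2). Leukocyte markers summed to 90.5 TPM in W1 and 7.17 TPM in W2 (3 of 4 higher in W1), pericyte markers to 63.1 TPM in W1 and 86.8 TPM in W2 (1 of 2 higher in W2) and platelet and erythroid markers to 4.99 TPM in W1 and 0.677 TPM in W2 (1 of 1 higher in W1). The part of these cell types in the values below was not tested, and in bulk RNA fewer cells of a type and less RNA per cell cannot be told apart.

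The receptor and co-receptor genes had 0 or 1 reads each in W2 and up to 6302 in W1. Together the 10 genes had 11845 reads and 740 TPM in W1, against 85 reads and 10.4 TPM in W2. Reads of 8 of the 10 genes were present in W1 and of 3 in W2, and Vegfa and Pgf had 0 reads in both. With a level of at least 1 TPM in either library, 6 genes could be compared by the log2 ratio of TPM + 1, a scale that understates the ratio of low genes. Of these, Kdr, Flt1, Nrp1, Nrp2 and Angpt2 were 2-fold or more higher in W1 and Vegfc was higher in W2. Over all 12587 genes compared in the same way, 34.7% were higher in W1 and 32.9% were higher in W2, so a 2-fold difference was common between these libraries. A gene at 1 TPM or more in W1 and at 0 in W2 is past 2-fold by construction, so these counts are a description. Of the 5 members with 20 or more reads in W1, 3 had 0 reads in W2, as did 17.3% of all genes with 20 or more reads in W1. Tek and Tie1 stayed under 1 TPM in W1 and had 0 reads in W2.

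**Figure D1:**
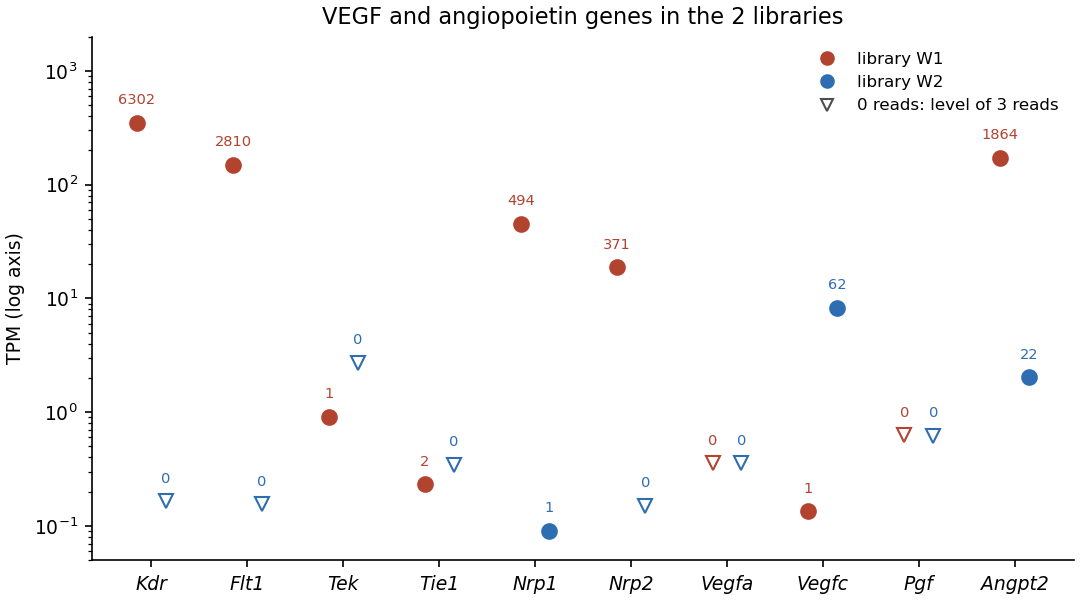
Level of each of the 10 genes in library W1 (red, left) and library W2 (blue, right), in TPM on a log axis, with the number of reads above each point. Open triangles mark 0 reads and are drawn at the level of 3 reads. Kdr, Flt1, Angpt2, Nrp1 and Nrp2 sit between 18.7 and 352 TPM in W1, and Vegfc at 8.30 TPM in W2 is the highest point of that library.

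Kdr, the main signalling receptor for VEGF, was the member with the most reads. The gene (ENSMUSG00000062960.10, chromosome 5, 75932827 to 75978458, minus strand, GRCm38) had 6302 reads in W1, or 352 TPM, and 0 reads in W2. With a floor of 3 reads for a library at 0, W1 was at least 2115-fold higher, and the log2 ratio of TPM + 1 was 8.46. The coding transcript Kdr-201 held 99.8% of the reads. The transcript Kdr-202, which keeps an intron, had 10 reads in W1, and Kdr-203, which also keeps one, had 0 in both libraries. Nearly all counted reads of Kdr thus fell on the transcript that encodes the full receptor of 1345 residues. All coordinates of genes and transcripts are on GRCm38, from GENCODE M21.

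Flt1, the second VEGF receptor gene (ENSMUSG00000029648.13, chromosome 5, 147561604 to 147726011, minus strand), had 2810 reads in W1, or 150 TPM, and 0 reads in W2, at least a 943-fold difference and a log2 ratio of 7.24. Most of these reads were assigned to the transcript of the secreted form. Flt1-203, which has 13 exons and encodes 688 residues, had 2167 reads and 114 TPM in W1, or 77.1% of the reads of the gene. Flt1-202, with 30 exons and 1333 residues including the kinase, had 609 reads and 29.2 TPM in W1. Neither was read in W2. The transcripts share their first 1972 coding bases and then part: Flt1-203 reads on into the intron and ends at a stop codon, while Flt1-202 joins the next exon. The bases after that point are shown because they set the decoy apart from the receptor (GENCODE M21 on GRCm38, minus strand, 5′ to 3′, with the stop codon of Flt1-203 in capitals; chr5:147639130-147639224 for Flt1-203 and chr5:147634429-147634523 for Flt1-202).
Flt1-203: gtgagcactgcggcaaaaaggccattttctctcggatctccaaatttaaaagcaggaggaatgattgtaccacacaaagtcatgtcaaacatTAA
Flt1-202: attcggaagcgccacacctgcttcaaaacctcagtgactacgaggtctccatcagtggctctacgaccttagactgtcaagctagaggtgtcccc

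The Flt1-203 sequence opens with the bases gtgagc, the splice donor that Flt1-202 uses and Flt1-203 passes over. Whether unspliced RNA added to the reads of Flt1-203 was not tested. Density is given per 100 own 50-mers, an own 50-mer being a stretch of 50 bases that occurs once in all listed transcripts. Over 4051 own 50-mers, Flt1-203 had 53.5 reads per 100 in W1, and over 4543 own 50-mers Flt1-202 had 13.4. The ratio of the densities was 3.99 (exact 95% interval 3.65 to 4.37, counting error only), and it was 4.02 with stretches of 100 bases and 3.9 in TPM. Flt1-206, annotated as a retained intron elsewhere in the gene, had 1.62 reads per 100 own 50-mers in W1 from 31 reads, and the intron-keeping Kdr-202 had 0.713. Both lie in other introns, so they do not give the density of unspliced RNA in the intron that Flt1-203 reads into. Of the longest own stretch of each, 4415 bases in Flt1-202 hold 1796 coding bases and 2086 bases in Flt1-203 hold 141.

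**Figure D2:**
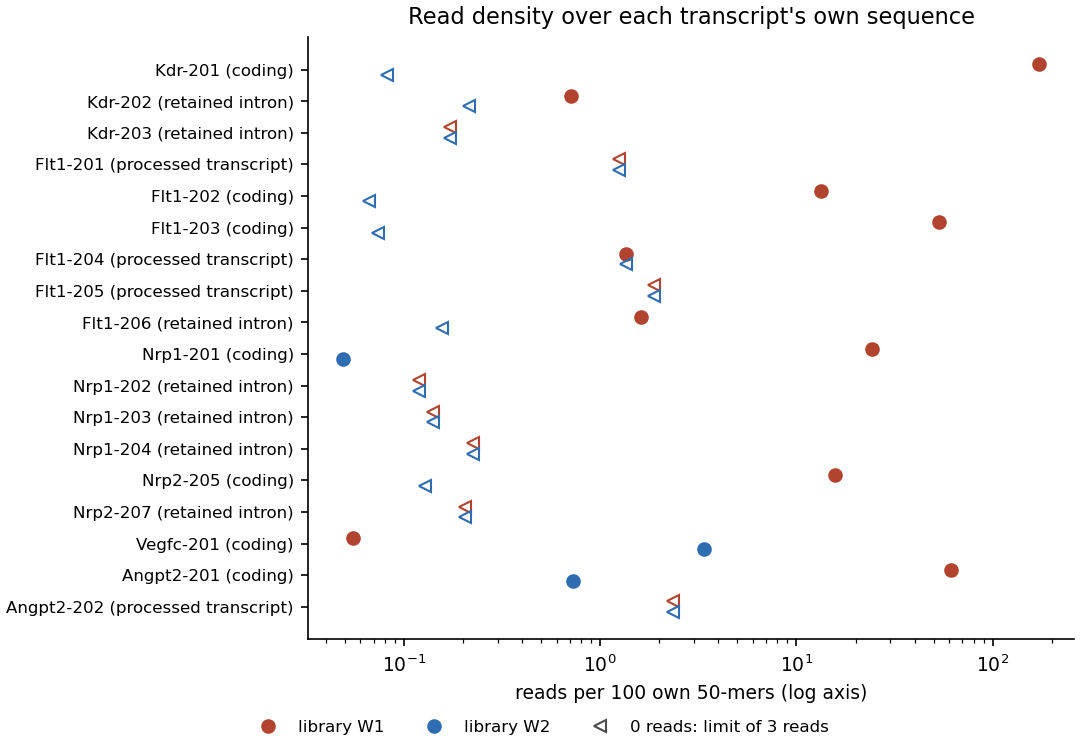
Reads per 100 own 50-mers (log axis) for those transcripts of Kdr, Flt1, Nrp1, Nrp2, Vegfc and Angpt2 that have 100 or more own 50-mers, in library W1 (red, above) and library W2 (blue, below). Open triangles mark 0 reads, drawn at the limit that 3 reads set. Flt1-203 lies at 53.5 and Flt1-202 at 13.4 in W1, while the intron-keeping Flt1-206 and Kdr-202 lie at 1.62 and 0.713.

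Both co-receptor genes were higher in W1. Nrp1 (ENSMUSG00000025810.9, chromosome 8, 128358604 to 128503363, plus strand) had 494 reads and 45.3 TPM in W1, against 1 read and 0.091 TPM in W2. The ratio was 497 (88.9 to 19680), a wide interval because it rests on 1 read. All reads fell on Nrp1-201, which encodes the membrane-bound protein of 923 residues, and the 3 intron-keeping transcripts of Nrp1 had 0 reads in both libraries over 1325 to 2524 own 50-mers each. Nrp2 (ENSMUSG00000025969.15, chromosome 1, 62703285 to 62818695, plus strand) had 371 reads and 18.7 TPM in W1 and 0 reads in W2, at least a 124.5-fold difference. Those reads were all assigned to Nrp2-205, which encodes 901 residues. The other 5 coding transcripts of Nrp2 have 47 own 50-mers each and had 0 reads, so which forms of the co-receptor were present was not resolved. Of the 2346 own 50-mers of Nrp2-205, 46 lie in its coding part.

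Tek and Tie1, the receptor pair of the angiopoietins, were at or under 2 reads. Tek (ENSMUSG00000006386.15, chromosome 4, 94739289 to 94874976, plus strand) had 1 read in W1, on the non-coding Tek-204, and 0 in W2. Its 3 coding transcripts have 49, 96 and 0 own 50-mers. Tie1 (ENSMUSG00000033191.14, chromosome 4, 118471191 to 118490061, minus strand) had 2 reads in W1, on the non-coding Tie1-202, and 0 in W2. No fold is given for either gene, since both libraries lie at or under the floor of 3 reads. With so little own sequence, 0 reads on the coding transcripts of Tek do not show that it was silent. The coding transcripts of Tie1 have 325 and 553 own 50-mers, and 0 reads there allow a density of up to 0.923 and 0.542 reads per 100 own 50-mers in each library, against 172 for Kdr-201 in W1. That limit covers those stretches and not the sequence that both coding transcripts share.

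Among the ligand genes, Angpt2 was higher in W1 and Vegfc was higher in W2. Angpt2, whose product is stored in endothelial cells and released on activation (ENSMUSG00000031465.6, chromosome 8, 18690263 to 18741562, minus strand), had 1864 reads and 173 TPM in W1, against 22 reads and 2.03 TPM in W2. W1 was 85.3-fold higher (56.2 to 137). It was the only receptor or ligand gene of the 10 with 20 or more reads in W1 and more than 1 read in W2. Vegfc (ENSMUSG00000031520.6, chromosome 8, 54077606 to 54187096, plus strand), the growth factor of lymphatic vessels, had 1 read and 0.135 TPM in W1, against 62 reads and 8.30 TPM in W2. The ratio of W2 over W1 was 61.6 (10.7 to 2471), and the log2 ratio of TPM + 1 was -3.03. All Angpt2 reads fell on Angpt2-201, its one coding transcript, and all Vegfc reads on Vegfc-201, the longer of 2.

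Vegfa and Pgf were listed at 0 in both libraries, but the sequence on which each could be read differed. Vegfa (ENSMUSG00000023951.17, chromosome 17, 46016993 to 46032369, minus strand) has 13 listed transcripts, 8 of them coding, which overlap so closely that the 8 have 70 own 50-mers between them and 6 of the 8 have none. Among coding transcripts with 1 to 100 own 50-mers in genes with several transcripts, 2.87% had a read in either library, against 44.3% of transcripts with over 500 and 0.44% of those with none. The 0 reads of Vegfa therefore do not show that it was silent in either library. Pgf (ENSMUSG00000004791.7, chromosome 12, 85166635 to 85177790, minus strand), the ligand that binds Flt1 and not Kdr, has 498 own 50-mers on its coding transcript Pgf-204 and none on Pgf-201. The 0 reads on Pgf-204 allow up to 0.602 reads per 100 own 50-mers in each library, while 0 reads on Pgf-201, with no own sequence, carry little information. Under 100 own 50-mers over all coding transcripts, as for Vegfa, was found in 11.0% of protein-coding genes.

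**Figure D3:**
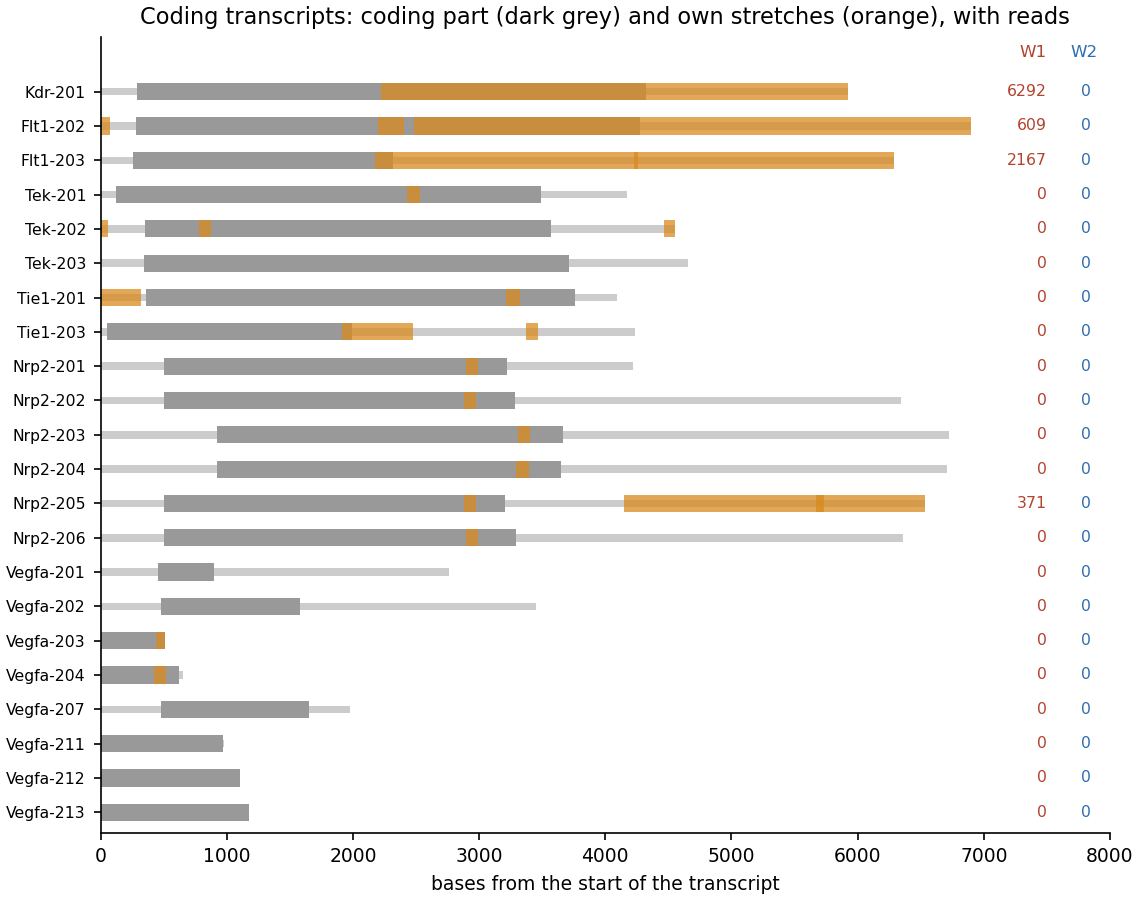
Coding transcripts of Kdr, Flt1, Tek, Tie1, Nrp2 and Vegfa, drawn to scale in bases from the start of each transcript. Thin grey is untranslated, dark grey is coding and orange marks own stretches, with the reads in W1 and W2 at the right. Transcripts with long orange stretches (Kdr-201, Flt1-202, Flt1-203 and Nrp2-205) hold all the reads, and the 8 coding Vegfa transcripts have 70 own 50-mers together.

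Read density, all reads of a transcript over its own 50-mers, gave an order of the coding transcripts within a library. Whether every counted read fell on own sequence was not tested. In W1 the order ran from Kdr-201 at 172 reads per 100 own 50-mers through Angpt2-201 at 61.4, Flt1-203 at 53.5, Nrp1-201 at 24.2 and Nrp2-205 at 15.8 to Flt1-202 at 13.4. The steps between neighbours were 2.81-fold (2.66 to 2.96), 1.15-fold (1.08 to 1.22), 2.21-fold (2.0 to 2.44), 1.53-fold (1.34 to 1.76) and 1.18-fold (1.03 to 1.34). Every interval lies above 1, but the intervals cover counting error only and not uneven coverage along a transcript. The last pair stood the other way in TPM, with Flt1-202 at 29.2 TPM and Nrp2-205 at 18.7 TPM in W1, so its order depends on the scale. The order of Nrp1 and Nrp2 turned with the choice of transcripts: summed over all transcripts with 100 or more own 50-mers, W1 had 6.15 reads per 100 for Nrp1 and 9.75 for Nrp2, since the intron-keeping transcripts of Nrp1 add own sequence without reads. In W2 Vegfc-201 at 3.39 reads per 100 stood 4.68-fold (2.84 to 8.00) above Angpt2-201 at 0.725. Of the 49 listed transcripts of the 10 genes, 12 had a read in either library.

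**Figure D4:**
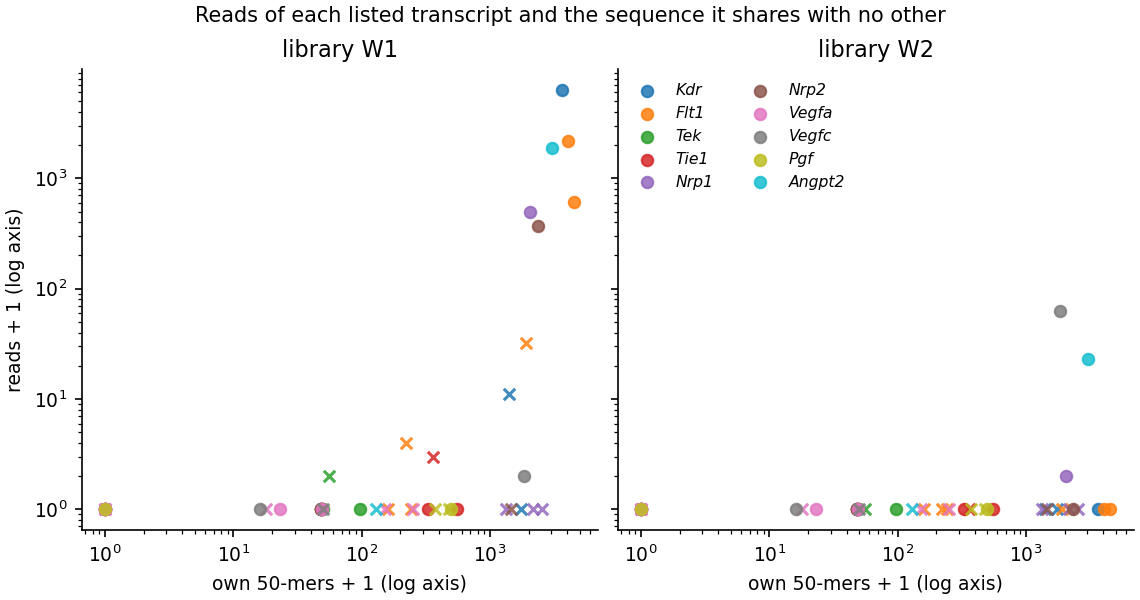
Reads plus 1 against own 50-mers plus 1 for each of the 49 listed transcripts of the 10 genes, both axes log, in library W1 (left) and library W2 (right). Colours mark genes, circles coding and crosses non-coding transcripts. Transcripts with few own 50-mers lie at or near 0 reads in both libraries, and those with 20 or more reads have 1827 or more own 50-mers.

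Flt4 and Ptprb, a receptor gene and a phosphatase gene of the wider family, had reads in W1 and none in W2. Of 12 other family genes in the tables, 5 could be compared, 3 were higher in W1 and 0 in W2. The median log2 ratio of the 5 was 1.87, against -0.07 over all genes compared. Flt4, which encodes the receptor of Vegfc, had 768 reads and 40.5 TPM in W1 and 0 reads in W2, at least 257.7-fold higher in W1. Ptprb, the endothelial phosphatase that acts on the product of Tek, had 710 reads and 19.7 TPM in W1 and 0 reads in W2. Angpt1, the activating ligand of Tek, had 74 reads and 5.73 TPM in W1, against 11 reads and 0.846 TPM in W2, a 6.77-fold ratio (3.57 to 14.2). The growth factor genes Pdgfa (8.97 and 10.5 TPM in W1 and W2) and Pdgfb (43.4 and 70.5 TPM in W1 and W2) lay within 2-fold. Pdgfc had 0 reads in W1 and 1 in W2. Vegfb, Vegfd, Angpt4, Pdgfd, Pdgfra and Pdgfrb had 0 reads in both, over 536, 1845, 2286, 127, 2978 and 222 own 50-mers. Flt4 was thus higher in W1, while Vegfc, the gene of its ligand, was higher in W2.

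Genes that act downstream of the VEGF receptors were found on both sides. Of 36 signalling genes, 25 could be compared, 12 were higher in W1, 5 in W2 and 8 lay within 2-fold, with a median log2 ratio of 0.91. Over all genes compared, 34.7% were higher in W1 and 32.9% in W2. The signalling count higher in W1 ran from 9 with a pseudocount of 5 to 14 in FPKM. Vav3, among the 12, rests on 5 reads in W1 and 2 in W2. The count higher in W2 was 1 with a pseudocount of 5, and 3 in FPKM or with the median ratio set to 0. Those with the largest differences among genes with 20 or more reads were Nck1 (9.54 TPM in W1, 0 reads in W2), an adaptor, Prkd2 (6.46 TPM and 0 reads), a protein kinase, Nos3 (5.43 TPM and 0 reads), the endothelial nitric oxide synthase, and Rac1 (26.1 and 2.76 TPM in W1 and W2), a GTPase of cell movement. Among those higher in W2, Nck2, the paralog of Nck1, stood at 5.596 TPM in W1 and 30.4 TPM in W2, and Prkca, a protein kinase C gene, at 0.728 TPM in W1 and 5.65 TPM in W2. Of 24 genes known to be induced by VEGF or to mark tip cells, the leading cells of a sprout, 19 could be compared, 14 were higher in W1 and 3 in W2, with a median of 1.69. Among the 14, Kcne3, Nr4a2 and Trp53i11 rest on 11, 3 and 2 reads in W1 and 0 in W2. The tip cell count higher in W1 ran from 10 with a pseudocount of 5 to 15 with a pseudocount of 0.1. It was 11 with a minimum of 20 reads. Plvap (1957 TPM in W1 and 4.78 TPM in W2), Dll4 (101.5 TPM in W1 and 0 reads in W2), Apln (67.5 TPM and 0 reads) and Esm1 (21.7 TPM and 0 reads) led the list. The 3 higher in W2 were Nr4a1 (7.31 and 37.7 TPM in W1 and W2), Rcan1 (0.904 and 3.89 TPM) and Angptl4 (10.7 and 23.4 TPM), of which Nr4a1 alone stayed past 2-fold with a pseudocount of 5. Rcan1 rests on 6 reads in W1 and 12 in W2, and the interval of its read ratio, W2 over W1, runs from 0.69 to 6.45. Plvap is also on the endothelial list.

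Among neuropilin partners and endothelial transcription factor genes, none of those compared was higher in W2, except 1 neuropilin partner when mitochondrially encoded and ribosomal protein genes were left out. Over all genes compared, 34.7% were higher in W1 and 32.9% in W2. Of 13 semaphorin, plexin and adaptor genes, 9 could be compared, 8 were higher in W1 and 0 in W2, with a median of 3.88. The count higher in W1 ran from 6 with a pseudocount of 5 to 9 on reads not divided by length. Sema3a (68.9 TPM in W1, 0 reads in W2) and Sema3f (54.8 and 1.09 TPM in W1 and W2) encode ligands of the neuropilins, and Plxna2 (33.5 TPM and 0 reads) and Plxnd1 (30.1 and 0.617 TPM in W1 and W2) encode plexins, the signalling partners. Of 19 transcription factor genes, 14 could be compared, 13 were higher in W1 and 0 in W2, with a median of 3.69. Among the 13, Hhex, Etv6 and Sox17 rest on 13, 14 and 17 reads in W1 and 0 in W2. The transcription factor count higher in W1 was 10 with a pseudocount of 5 or a minimum of 20 reads. It was 14 on reads not divided by length. Fli1 and Elk3 are ETS factors, a family known to bind the control regions of Kdr, Flt1, Tek and Tie1. Fli1 stood at 113 and 0.395 TPM in W1 and W2 and Elk3 at 35.4 and 0.078 TPM. Sox18 (183 TPM in W1), a vascular factor, and Prox1 (75.3 TPM in W1), the factor of lymphatic identity, had 0 reads in W2.

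Hypoxia genes, which include the factors that induce Vegfa, lay mostly within 2-fold on TPM + 1. Of 20, 17 could be compared, 3 were higher in W1, 4 in W2 and 10 lay within 2-fold, with a median of 0.43. Over all genes, 4075 of the 12587 compared lay within 2-fold. Among the 10, Ldha rests on 2 reads in W1 and 3 in W2. Arnt, also among them, had a read ratio, W1 over W2, of 8.31 (2.95 to 32.3). Hif1a, the oxygen-regulated subunit, stood at 21.5 TPM in W1 from 52 reads and had 0 reads in W2. The values of Hif1a cover reads counted on 5 listed transcripts, which have 1353 own 50-mers together. Its 0 reads in W2 do not show that it was silent there. Epas1, a close relative of Hif1a, stood at 161 TPM in W1 and 89.2 TPM in W2, within 2-fold. Egln2 (20.2 and 7.0 TPM in W1 and W2), an oxygen-sensing hydroxylase, was higher in W1, and P4ha1 (0.245 and 4.14 TPM in W1 and W2), a collagen hydroxylase subunit, and Higd1a (1.18 and 6.24 TPM in W1 and W2), a mitochondrial protein, were higher in W2. The count of hypoxia genes higher in W1 was 7 on reads not divided by length, 6 with the median ratio set to 0 and 5 in FPKM, so it depends on the scaling. With a pseudocount of 5, 0 hypoxia genes were past 2-fold in W2, P4ha1 and Higd1a included.

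**Figure D5:**
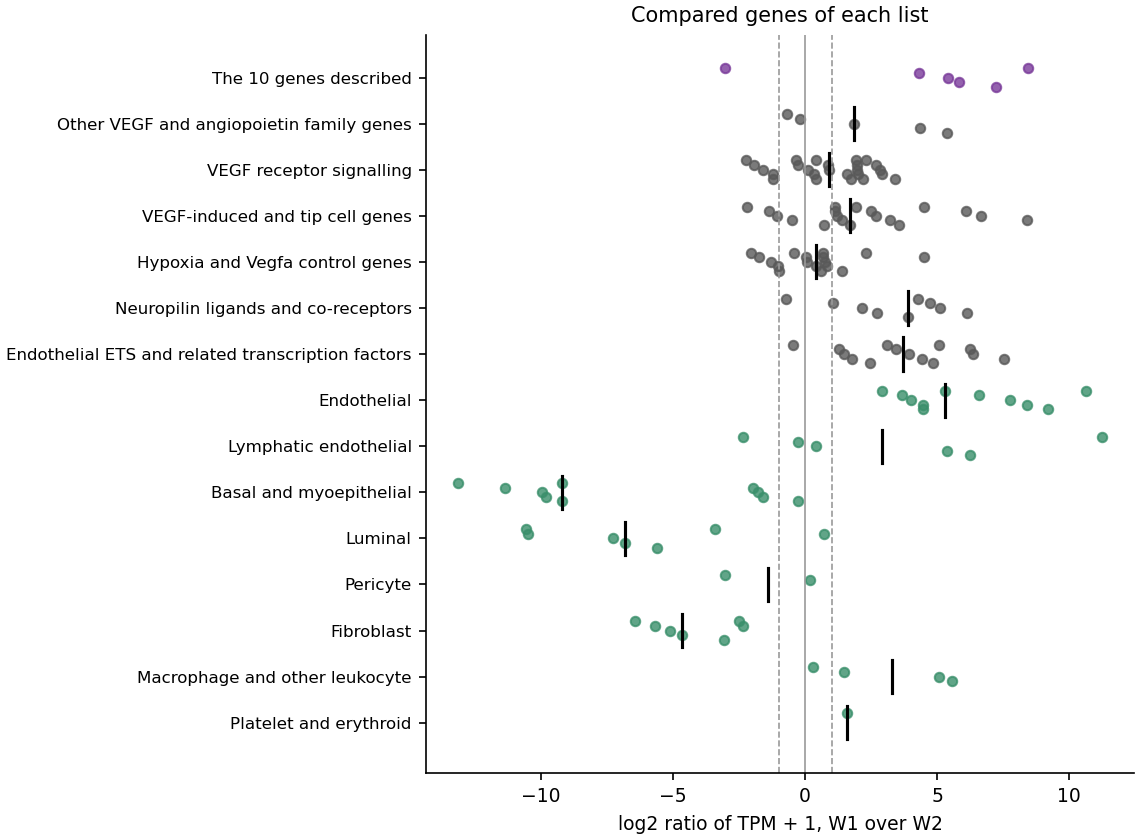
Log2 ratio of TPM + 1, W1 over W2, for the compared genes among the 10 described (purple), the pathway lists (grey) and the cell type marker lists (green). Black bars mark the median of a list and dashed lines 2-fold in each direction. Endothelial markers, neuropilin partners and endothelial transcription factors lie to the right with medians of 5.28, 3.88 and 3.69, hypoxia genes centre near 0 with a median of 0.43, and basal markers lie to the left with a median of -9.20.

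Promoters of Kdr, Flt1 and Vegfc are shown because the first 2 genes were read in W1 alone and the third almost alone in W2. Each is the 250 bases before the gene start in RefSeq on GRCm38.p6, at chr5:75978456-75978705 (minus strand), chr5:147726012-147726261 (minus strand) and chr8:54077282-54077531 (plus strand), written 5′ to 3′. Capitals mark the ETS core GGAA on either strand and, in Flt1, the cyclic AMP response element TGACGTCA.
Kdr: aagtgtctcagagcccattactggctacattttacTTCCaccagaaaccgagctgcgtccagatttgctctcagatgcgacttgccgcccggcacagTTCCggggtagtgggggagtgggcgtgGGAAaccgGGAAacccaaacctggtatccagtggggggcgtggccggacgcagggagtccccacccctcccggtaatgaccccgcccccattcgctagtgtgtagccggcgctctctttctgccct
Flt1: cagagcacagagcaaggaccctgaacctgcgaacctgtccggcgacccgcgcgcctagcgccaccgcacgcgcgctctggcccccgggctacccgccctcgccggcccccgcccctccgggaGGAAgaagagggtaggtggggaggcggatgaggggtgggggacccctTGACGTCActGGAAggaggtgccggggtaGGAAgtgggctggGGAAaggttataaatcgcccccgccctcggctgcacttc
Vegfc: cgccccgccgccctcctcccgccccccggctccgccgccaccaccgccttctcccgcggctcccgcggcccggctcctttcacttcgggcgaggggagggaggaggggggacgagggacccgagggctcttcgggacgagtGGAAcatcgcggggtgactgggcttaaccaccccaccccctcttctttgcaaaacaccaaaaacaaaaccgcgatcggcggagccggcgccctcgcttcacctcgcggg

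Kdr and Flt1 have 4 matches each to GGAA in this window and Vegfc has 1. Nrp1 and Nrp2, both higher in W1, have 4 matches and 1. Among members not compared, Tek has 2, Tie1 has 7, Vegfa has 2 and 6 in its 2 entries, and Pgf has 0 in each of its 2. Whether the count goes with the library was not tested. Motifs were searched on both strands. The core is short, and 93.4% of 32851 promoter windows of the same length hold it, with a median of 3 matches. The element TGACGTCA was found in 1.55% of windows and, among the 9 matched genes, in Flt1 alone, from 81 to 74 bases before the start. The longer match AGGAAG, found in 29.5% of windows, lies from 129 to 124 and from 53 to 48 bases before the start of Flt1 and each time contains a GGAA core, and Tie1 and Nrp1 have 1 match each. TATAAA, found in 12.4%, occurs in Flt1 and in no other of the 9 genes with an entry. A match describes these letters and is not a binding site. Entries matched 9 of the 10 genes, Vegfa and Pgf with 2 each, and Angpt2 was not matched.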

How the data were processed

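Per the submitters' processing notes, the processing involved Bowtie 0.12.2, and both mm8 and GRCm38 appear there with no stated role. No source used here states the counting tool or strand setting. For 137767 transcripts the authors deposited TPM and FPKM values of 2 libraries, and no other value column was present. The authors' TPM equals their FPKM times 1.00852 in W1 and 1.24567 in W2.

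Identifiers were matched to GENCODE M21 on GRCm38 (137654 matched, 113 did not), and a gene's value is the sum over its transcripts. Whole reads were recovered from FPKM times transcript length: of the transcripts above 0, 98.43% in W1 and 98.05% in W2 came out whole within 0.1 read. This was tested on simulated data. Ratios of reads carry 95% limits by the exact Clopper-Pearson method, and a library at 0 was given a floor of 3 reads. Both cover counting error only, since each library is single. No molecular identifiers are described, so reads copied from the same molecule could not be told apart, and the limits may be too narrow. Own 50-mers are runs of 50 bases found once among the matched transcripts on the same strand. By read recovery across all transcripts, those without own 50-mers in genes with several transcripts were almost never counted (0.44% had a read), so overlapping isoforms are undercounted. No source used here states the read length.

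Genes that reached 1 TPM in either library were compared at 2-fold on log2(TPM + 1), W1 over W2. Both libraries are unassigned by the labels, so no group was formed. From each pathway list, the 4 genes with the largest absolute log2 ratio among those with 20 or more reads were named. All 10 genes and the other family genes were named regardless. Nck2, Prkca, Epas1, the lymphatic markers and the tip cell genes higher in W2 were named after their values were seen. So were Vav3, Ldha, Arnt, Kcne3, Nr4a2, Trp53i11, Hhex, Etv6, Sox17, Itga6 and Mylk. The members and lists were chosen with earlier results of these data known. Software was Python 3.11.15 with pandas 2.3.3, scipy 1.17.1, numpy 2.4.6 and, for plots, matplotlib 3.10.9.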

Additional observations from a re-analysis of the deposited data

How the results depend on the processing

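With pseudocounts of 0.1 and 5, no filter, a minimum of 20 reads, FPKM, reads scaled to the library total, 2 other scalings and the transcript with the most reads in place of the sum, 5 or 6 of the 10 genes were higher in W1 and 1 was higher in W2. The sixth was Tek, whose 1 read reached the limit of 1 TPM when mitochondrially encoded and ribosomal protein genes were left out or the median ratio was set to 0, a shift of -0.35 on the log2 scale. Members with 0 reads numbered 2 in W1 and 7 in W2 with tolerances of 0.05 and 0.2 read. Over all genes, a pseudocount of 5 gave 2112 higher in W1 and 2509 higher in W2, against 4370 and 4142, and a minimum of 20 reads gave 2664 higher in W1. Of 56 recomputed log2 ratios of the 8 members with reads, 26 moved beyond counting error and 0 changed sign. Of 252 recomputed list counts, 14 moved by over 1.5 times, and with a pseudocount of 5 the lymphatic count higher in W2 and the platelet and erythroid count higher in W1 were 0. Levels against Kdr in W1 changed with own 50-mers over all transcripts of a gene: Flt1 was at 0.428 in TPM and 0.272 per own 50-mer, Nrp1 at 0.129 and 0.0664, Nrp2 at 0.0533 and 0.105 and Angpt2 at 0.492 and 0.636, so the order of Nrp1 and Nrp2 turned. Stretches of 100 bases, an alternative chosen after seeing the data, gave 0.273, 0.0669, 0.104 and 0.641. No paired analysis was possible because no group has a replicate. With 1 library of each, counting error is the only spread measured, and transcripts with few own 50-mers were seldom counted.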

Other observations

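Base composition before the start differed among the 9 genes with a promoter entry. Over the 250 bases before the start, GC content was 72.4% for Nrp2, 71.6% for Vegfc and 70.4% for Flt1, and 51.2% for Tek, against a median of 52.4% over 32851 windows. The ratio of observed to expected CpG was 0.99 for Nrp2 and 0.96 for Vegfc, and 0.13 for Tek and 0.28 for Tie1. Nrp2, higher in W1, and Vegfc, higher in W2, were thus close in composition.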
